A study of Mus musculus with 22 samples.

Results

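The genes described here load and display antigen on MHC molecules. They are the class II chains H2-Aa, H2-Ab1 and H2-Eb1, the class II loading factors H2-DMa, H2-DMb1 and Cd74, the class II transactivator Ciita, and the class I genes H2-K1, H2-D1 and B2m. These 10 genes, of 21938 protein-coding genes in the GENCODE vM21 annotation of GRCm38, were chosen by name, with earlier results of these data known. Their open chromatin was read from ATAC-seq peak lists, 1 for each of 22 libraries of adipocyte nuclei from mouse epididymal fat. A locus is the gene span with 20 kb added on each side, and a promoter is any annotated transcript start with 2 kb on each side.

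The mice were male AdipoERCre x NuTRAP animals, of a background that the labels spell C576BL6. The Cre is driven in adipocytes and switched on by tamoxifen, which all groups received, and the reporter lets the nuclei of recombined cells be tagged with biotin and pulled down. Nuclei of other cell types can still be carried along in the pull-down. In the short arm, C (n = 3) were chow-fed mice of 18 weeks and H (n = 3) were mice of that age with 12 weeks of high-fat diet. HC (n = 3) had 12 weeks of high-fat diet, then 8 weeks of chow, and were 26 weeks old, as were their chow-fed controls CC_s (n = 3). In the long arm, CC_l (n = 2, chow) and HH (n = 3, fed high-fat diet for 25 weeks) were both aged 31 weeks. HHC (n = 3) had 25 weeks of high-fat diet, then 8 weeks of chow, and were 39 weeks old, with chow-fed controls CCC (n = 2). H and HH are the obese groups, HC and HHC the weight-loss groups. Each library is labelled as a separate biological replicate.

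MHC class I molecules are a heavy chain, such as the products of H2-K1 and H2-D1, paired with β2-microglobulin from B2m, and they show peptides from inside the cell on almost all nucleated cells. MHC class II molecules pair an α chain (H2-Aa) with a β chain (H2-Ab1) and show peptides from endosomes, mainly on macrophages, dendritic cells and B cells. The invariant chain Cd74 guards the class II groove on its way to the endosome, and H2-DM, made by H2-DMa and H2-DMb1, exchanges its remnant for peptide. H2-Eb1 encodes the β chain of the second class II molecule, whose α chain gene is defective in C57BL/6 mice. Ciita is the co-activator that class II promoters need, and Nlrc5 plays the like part at class I promoters. Interferon γ raises both.

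The promoters of these genes carry short shared boxes, which is why the sequences of 5 of them are shown. RefSeq windows of 300 bases (GRCm38.p6, around a transcript start) were at hand for 7 of the 10 genes in 9 windows. Ciita, H2-Ab1 and Cd74 had no entry. Capitals mark matches, on either strand, to the Y box (CTGATTGG), its core (ATTGG, contained in the Y box), the X box core (CCTAGNAAC), a cyclic AMP element core (TGACG), a κB site (GGGGATTCC) and an interferon response element core (GAAANNGAA). The class II chains come first, then H2-DMb1, then class I.
H2-Aa, chr17:34287774-34288073, minus strand: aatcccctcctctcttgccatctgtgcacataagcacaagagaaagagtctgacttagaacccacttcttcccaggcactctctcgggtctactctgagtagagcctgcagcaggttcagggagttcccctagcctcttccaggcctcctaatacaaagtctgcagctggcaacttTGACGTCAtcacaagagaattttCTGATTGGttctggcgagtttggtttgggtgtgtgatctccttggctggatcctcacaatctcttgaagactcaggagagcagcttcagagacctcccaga
H2-Eb1, chr17:34305617-34305916, plus strand: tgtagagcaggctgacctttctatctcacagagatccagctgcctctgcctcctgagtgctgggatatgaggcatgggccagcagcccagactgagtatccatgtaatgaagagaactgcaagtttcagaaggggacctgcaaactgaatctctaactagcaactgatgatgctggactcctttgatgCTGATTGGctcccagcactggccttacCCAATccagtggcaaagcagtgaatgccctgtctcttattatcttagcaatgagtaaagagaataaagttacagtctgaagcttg
H2-DMb1, chr17:34152941-34153240, plus strand: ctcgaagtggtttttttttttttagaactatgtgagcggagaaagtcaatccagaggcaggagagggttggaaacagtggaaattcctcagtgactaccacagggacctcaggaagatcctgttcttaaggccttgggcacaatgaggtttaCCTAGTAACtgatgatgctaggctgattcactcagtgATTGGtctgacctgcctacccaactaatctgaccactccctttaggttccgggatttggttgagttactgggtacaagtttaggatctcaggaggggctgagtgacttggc
H2-K1, chr17:34000298-34000597, minus strand: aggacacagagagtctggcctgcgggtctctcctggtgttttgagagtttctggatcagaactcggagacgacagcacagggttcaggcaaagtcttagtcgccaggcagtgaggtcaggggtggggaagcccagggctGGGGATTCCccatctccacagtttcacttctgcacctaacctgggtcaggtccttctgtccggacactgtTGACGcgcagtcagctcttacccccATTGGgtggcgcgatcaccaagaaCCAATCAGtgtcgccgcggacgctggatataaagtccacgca
B2m, chr2:122147437-122147736, plus strand: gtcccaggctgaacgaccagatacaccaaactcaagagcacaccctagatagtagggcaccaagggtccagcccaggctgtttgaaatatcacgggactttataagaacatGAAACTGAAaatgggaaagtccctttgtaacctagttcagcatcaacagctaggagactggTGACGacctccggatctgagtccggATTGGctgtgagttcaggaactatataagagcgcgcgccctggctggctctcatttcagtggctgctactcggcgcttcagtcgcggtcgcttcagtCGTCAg

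The Y box stood in the windows of H2-Aa, H2-Eb1, H2-K1 and H2-D1, and in 4.10% of all 32851 promoter windows. Its core was present in at least 1 window of all 7 genes, and in 37.4% of all windows. The κB site was found in H2-K1 and H2-D1 (0.250% of all windows), the interferon response element core in B2m (8.56%) and the X box core in H2-DMb1 (1.52%). The cyclic AMP element core was in H2-Aa, H2-K1, H2-D1 and B2m (20.8%). In H2-Aa that core at bases 177 to 181 precedes the Y box at bases 200 to 207, and in H2-DMb1 the X box core at bases 153 to 161 precedes the Y box core at bases 190 to 194, counted from the 5′ end of each window. A match is a description of letters and not a bound site. The windows of H2-K1, H2-D1 and B2m were overlapped by a peak in 22 of 22 libraries. The H2-DMb1 window was overlapped in 17, the H2-Eb1 window in 10 and the H2-Aa window in 2 (HC 3 and HHC 1).

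The lists held 40528 to 60523 peaks per library. The deposited values, total signal (coverage summed over a peak) and maximum signal (its highest coverage), are not normalised, and read depth is unknown. Each library was therefore ranked by total signal, and each rank took the log2 total signal that the 22 libraries had there on average. Values past the last shared rank sit at a floor, which is 14.30 for promoters, 14.06 for loci and 14.01 for regions, so a value at the floor stands for a weak peak or for no peak at all. All log2 levels below are on this scale. In 4 libraries the median peak maximum was under 4 times the lowest: HC 3 (2.43), HHC 3 (2.25), CCC 2 (3.67) and HH 1 (3.75). The other libraries lay between 4.25 and 8.92. In these 4 libraries the summed promoter signal of 12 adipocyte marker genes was 1030 to 2944 ppm (parts of the library's summed signal, scaled as in CPM), and in the other 18 it was 4879 to 7362. For differences of the 10 genes that rest on HHC 1, described below, or on these 4 libraries, a value without them is also given. H2-K1 and H2-D1 have close relatives on the same chromosome, and how the authors' alignment shared reads among them is not given in the sources used here.

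The promoters of the 3 class I genes carried a peak in all libraries, and the first bases of the 3 class II chain genes carried none in most. A promoter peak was present in 22 of 22 libraries for B2m, H2-K1, H2-D1, H2-DMa and Cd74. It was present in 21 for H2-Ab1, 18 for H2-DMb1, 10 for H2-Eb1, 4 for Ciita and 2 for H2-Aa. Over the 22 libraries, the promoter level of H2-DMa ran from 18.35 to 20.41 with a median of 19.08. Brd2, which encodes a broadly expressed chromatin reader, has its promoter in the same region of 50885 bp (chr17:34095088-34145972). B2m ran from 16.90 to 19.27 (median 17.99), H2-D1 from 15.61 to 19.06 (median 16.23) and H2-K1 from 14.64 to 17.82 (median 16.05). The median of Cd74 was 15.38 (14.54 to 17.75). The medians of H2-Aa, H2-Eb1, H2-DMb1 and Ciita were at the floor of 14.30, and that of H2-Ab1 was 14.50.

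**Figure D1:**
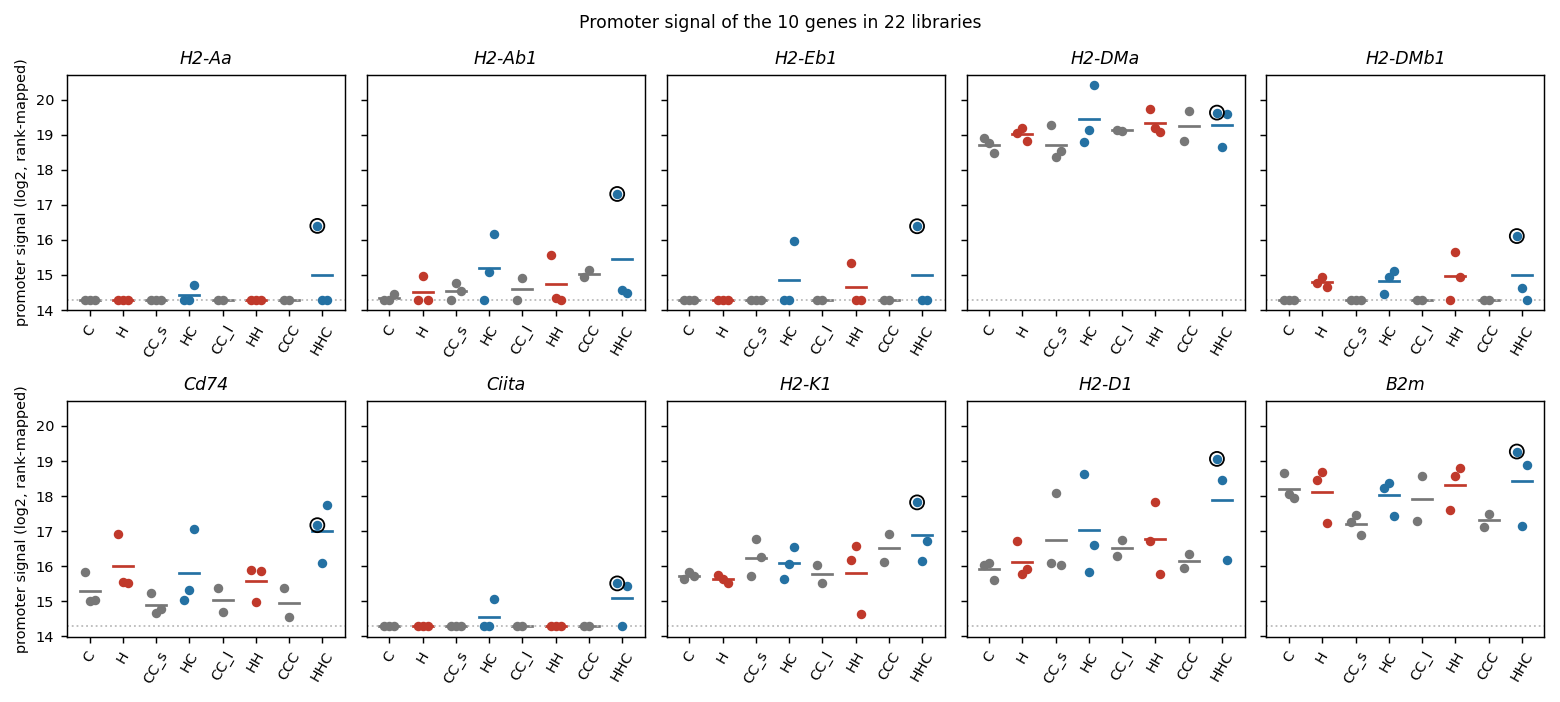
Promoter signal of the 10 genes (log2 of total signal after rank-mapping, y axis) in the 22 libraries by group (x axis); points are libraries, bars are group means, the dotted line is the floor of 14.30 and the ring marks HHC 1. Grey is chow, red is high-fat diet and blue is weight loss. Except for H2-DMa and Cd74, the ringed library is the highest in each panel.

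B2m encodes the light chain of class I. Its locus level was 18.70, 18.43 and 18.35 in C and 18.45, 18.55 and 18.58 in H. It was 18.56, 18.02 and 18.15 in CC_s and 18.44, 18.51 and 18.49 in HC. These ranges overlap in the first pair and in the second. In CC_l it was 18.46 and 18.63, in HH 18.58, 18.61 and 18.69, in CCC 18.36 and 18.48, and in HHC 19.22, 18.32 and 18.80. HHC 1 held the highest value of the 22 libraries.

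H2-K1, a class I heavy chain gene at chr17:33996017-34000347 on the minus strand, lies under a region of 26721 bp (chr17:33987520-34014240) with a peak in 22 of 22 libraries. The region's level was 16.84, 17.35 and 17.20 in CC_s and 16.20, 16.38 and 16.46 in HC, and the groups did not overlap, as in 19.2% of all regions tested in that pair. The difference, HC minus CC_s, was -0.78 ± 0.22 (SE) with an adjusted p = 0.23 (limma, Benjamini-Hochberg over 29698 regions). By maximum signal the difference was 0.01. In CCC the level was 16.61 and 17.47, and in HHC it was 18.02, 16.75 and 16.60, so the long arm overlapped. In C it was 16.22, 16.81 and 16.57 and in H 16.67, 16.47 and 16.37. CC_s was also above C, by 0.60 ± 0.21 (adjusted p = 0.59, limma).

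H2-D1, the other class I heavy chain gene (chr17:35262730-35267499, plus strand), sits in a region of 60771 bp that also holds the promoters of Ddx39b, Atp6v1g2 and Nfkbil1. Its locus level was 18.72, 18.89 and 18.83 in C and 18.89, 18.34 and 18.22 in H. It was 18.95 and 19.10 in CC_l and 18.42, 18.98 and 18.39 in HH. In both arms 2 of the 3 obese libraries were below the control libraries. Over both durations, obese minus control was -0.37 ± 0.15 (SE), adjusted p = 0.10 (limma). Counted over the gene span alone the difference was 0.05, and by maximum signal it was 0.02. It was called without H 1, at -0.48 (adjusted p = 0.042, limma), and as a share of library signal, at -0.55 (adjusted p = 0.049, limma).

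The class II chain genes stand side by side on chromosome 17, H2-Ab1 at 34257689-34269419 (plus strand), H2-Aa at 34282744-34287823 (minus strand) and H2-Eb1 at 34305867-34316674 (plus strand), and their loci share peaks. The H2-Aa locus was covered by 23.35 kb of peaks in HHC 1, of a locus of 45.08 kb. HC 3 came next with 9.66 kb and HH 1 with 6.71 kb, and the median library had 2.33 kb. H 1, CC_l 1 and HH 3 had no peak in this locus. The H2-Eb1 locus was covered by 19.54 kb in HHC 1, 8.98 kb in HC 3 and 8.10 kb in HH 1, against a median of 3.36 kb. The H2-Ab1 locus was covered by 15.79 kb in HHC 1, and the next library, HC 3, had 6.36 kb.

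**Figure D2:**
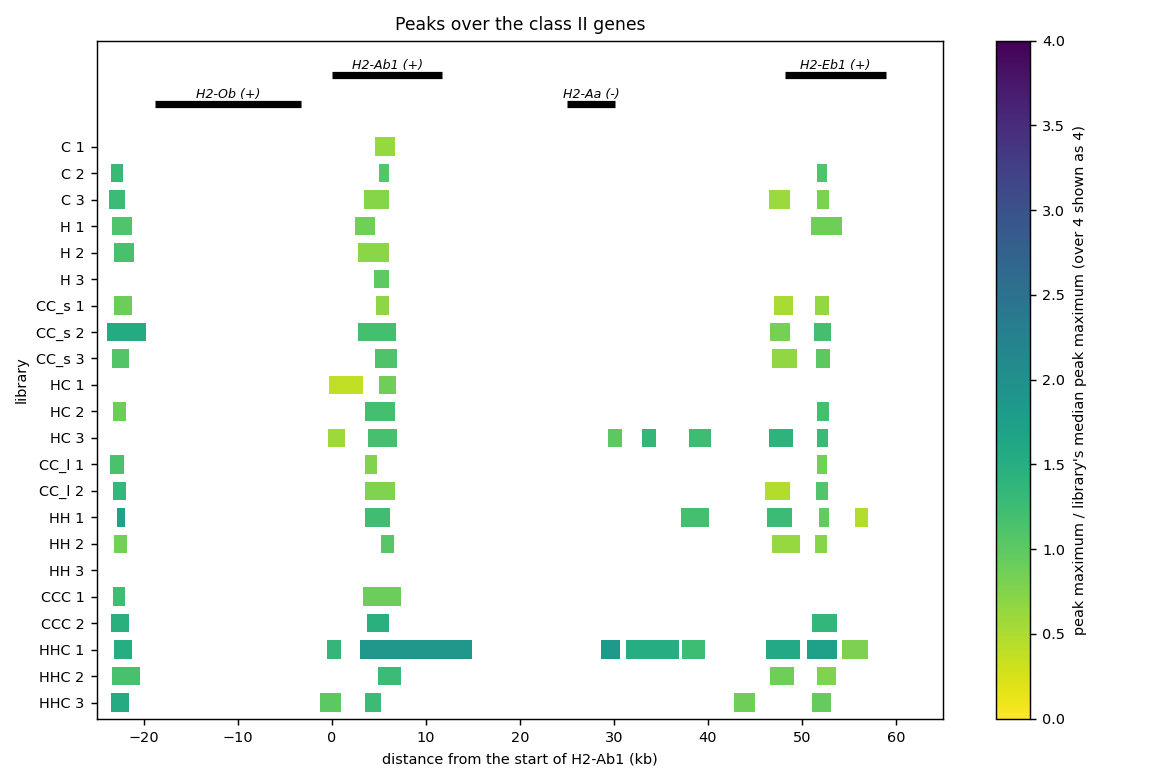
Peaks of each library (rows) by distance in kb from the start of H2-Ab1 (x axis), coloured by peak maximum relative to the library's median peak maximum; black bars are genes with their strand. HHC 1 has peaks at the starts of all 3 class II chain genes, and the peak inside H2-Ab1 is present in 21 libraries.

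Among the class II chain genes, the peak inside H2-Ab1, the β chain gene, was present in the most libraries. It belongs to a region of 16198 bp (chr17:34256389-34272586) that spans the gene and had a peak in 21 of 22 libraries, HH 3 being the exception. The region's level was 17.43 in HHC 1, 16.75 in HC 3, 16.03 in HHC 3 and 15.55 in HH 1, and at most 15.25 elsewhere. In HHC 1, 9.83% of that library's regions ranked above it, and in CCC 1 it was 53.8%. The start of H2-Ab1 itself, base 34257689, was under a peak in 4 libraries, HC 1, HC 3, HHC 1 and HHC 3. These are 4 of the 6 weight-loss libraries, and none of the other 16 libraries had a peak there. The maximum of the peak over the start was 0.38 times the library's median peak maximum in HC 1 and 0.59 times in HC 3. It was 1.00 times in HHC 3 and 1.35 times in HHC 1. A start covered in 4 or more weight-loss libraries and in no other was found for 2 of 21938 genes (0.0091%). Over both durations, weight loss minus control for the region was 0.97 ± 0.45 (adjusted p = 0.28, limma), which did not pass. It was 0.71 without HHC 1, 0.69 without HC 3, 0.67 without the 4 low-signal libraries, 0.51 with the 30000 strongest peaks and 0.33 by maximum signal. The pattern of covered starts was noticed in these values and not tested, and 2 of the 4 libraries, HC 3 and HHC 3, are among those of low signal.

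H2-Aa, the α chain gene, had a peak at its start in HC 3 and HHC 1 and in no other library. The peak maximum there was 1.85 times the library's median peak maximum in HHC 1 and 1.00 times in HC 3. The promoter level was 16.40 and 14.71 in these libraries and at the floor of 14.30 in the other 20. H2-Eb1 had a peak at its start in 10 libraries, of which 3 rose above the floor, HHC 1 (16.39), HC 3 (15.98) and HH 1 (15.33). An intergenic region between H2-Aa and H2-Eb1 (chr17:34294872-34298061) had a peak in 3 libraries, HC 3 (15.55), HH 1 (15.48) and HHC 1 (15.25). No group of 3 had all its promoter levels above the floor of 14.30 at H2-Aa or at H2-Eb1.

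Ciita, the class II transactivator gene on chromosome 16 (10480059-10528418, plus strand), had a promoter peak in HHC 1 (15.51), HHC 3 (15.44), HC 3 (15.06) and CCC 2, where the level stayed at the floor of 14.30. That peak region (chr16:10486923-10490922) lies at a start inside the gene span, and the first base of the span was covered in 0 of 22 libraries. The Ciita locus also takes in a region at the promoters of Dexi and Clec16a with a peak in 22 of 22 libraries (chr16:10531858-10560930). For that region H minus C was 0.32 ± 0.11 with an adjusted p = 0.086 (limma), which did not pass, and by maximum signal it was -0.12. The locus level was 17.66, 17.03 and 17.08 in CC_s, 17.54, 17.68 and 17.80 in HC, 17.16 and 17.24 in CCC and 18.20, 17.33 and 17.70 in HHC. Over both durations, weight loss minus control was 0.47 ± 0.19 (SE), adjusted p = 0.27 (limma). Its unadjusted p was under 0.05, and no longer so without HHC 1, where the difference was 0.38, or without any one of CC_s 2, CC_s 3, HC 2, HC 3, CCC 1 and CCC 2. Without the 4 low-signal libraries the difference was 0.44, as a share of library signal 0.25, over the gene span alone 0.72 and by maximum signal -0.01.

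H2-DMb1, the β chain of the H2-DM exchange factor (chr17:34153072-34160230, plus strand), had a region at its promoter (chr17:34151696-34156797) with a peak in 17 libraries. Its level was at the floor of 14.01 in all 3 C libraries and 14.56, 14.71 and 14.42 in H. It was 14.01, 14.31 and 14.17 in CC_s and 14.52, 14.91 and 14.68 in HC. The groups did not overlap in either pair. In H against C this held for 40.7% of all regions tested, and in both pairs with the same direction for 7.07%. In CC_l it was 14.34 and 14.01, in HH 14.01, 15.62 and 14.57, in CCC 14.24 and 14.01, and in HHC 16.13, 14.85 and 14.01. HH 1 and HHC 3, at the floor, are both of low signal.

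The H2-DMb1 difference was 0.55 ± 0.14 (SE) for H minus C, with an adjusted p = 0.033 (limma). It met the adjusted threshold and not the threshold of 1 on the log2 difference. Because C sat at the floor, the size depends on the floor. As a share of library signal, a scale on which a library without a peak sits at 0, H minus C was 1.78 (adjusted p = 0.14, limma), past the threshold of 1 and not past that on the adjusted p, and by maximum signal it was 0.77 (adjusted p = 0.11, limma). For HC minus CC_s it was 0.54 ± 0.21 (adjusted p = 0.37, limma). Over both durations it was 0.55 ± 0.23 for obese minus control (adjusted p = 0.095, limma) and 0.69 ± 0.30 for weight loss minus control (adjusted p = 0.26, limma). As a share of library signal these 3 were 1.46, 0.93 and 1.39. Without HHC 1 the rank-mapped difference for weight loss was 0.45, and without HH 1 that for obesity was 0.70 with an adjusted p = 0.017 (limma). In H against C, the adjusted p rose above 0.05 when any one C library, H 1 or H 2 was left out (0.064 to 0.13), and it was 0.071 with the replicate number as a block.

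The locus of H2-DMb1 was much less steady than its promoter. Its level was 19.04 in CC_s 2, 19.39 in H 2, 19.10 in HC 1 and 19.37 in HH 2, and no other library passed 18.46. In these 4 libraries the deposited total signal was 192.4 to 240.3 ppm, against a median of 30.2. A peak counts with its whole signal once it touches a locus, and the large region at H2-DMa and Brd2 crosses the edge of this one.

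Cd74, the invariant chain gene (chr18:60803848-60812652, plus strand), was open at its start in 22 of 22 libraries and its promoter region and its whole locus gave different values. The region over its promoter and gene body (chr18:60799403-60816789) had a level of 15.92, 15.65 and 15.65 in CC_s and 16.00, 16.04 and 17.56 in HC. It was 16.05 and 16.24 in CCC and 17.54, 16.68 and 18.27 in HHC. All 6 weight-loss libraries lay above the controls of their own age. Of all regions tested, 6.31% did not overlap in both arms with the same direction. Over both durations, weight loss minus control was 1.04 ± 0.33 (SE), adjusted p = 0.13 (limma), the one region in the loci of these genes with an unadjusted p under 0.01 and an absolute log2 difference above 1. The study states that pair of cut-offs for promoters, on counts summed by gene. Here it was applied to all regions, promoter or not, and is called the promoter cut-offs. For enhancers the study states an adjusted threshold with the same log2 difference, as in the calls made here. In the long arm alone, HHC minus CCC was 1.35 ± 0.46 (adjusted p = 0.75, limma), and without HHC 3 it was 0.96. Without the 4 low-signal libraries, 2 of which (HC 3 and HHC 3) were among the 3 highest, the difference over both durations was 0.56, with an adjusted p = 0.21 (limma), and by maximum signal it was 0.47. The adipocyte marker signal was 1515 ppm in HC 3 and 1030 ppm in HHC 3, the 2 lowest of the 22 libraries, and its part in the Cd74 difference was not tested.

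The region over Cd74 was 16.29, 15.66 and 15.86 in C and 16.85, 15.42 and 15.37 in H, and 16.08 and 15.67 in CC_l and 17.05, 15.53 and 16.21 in HH. The obese and control libraries overlapped. Across the locus, by contrast, the level was 17.10, 17.76 and 18.35 in C and 17.07, 15.96 and 15.49 in H. H minus C was -1.57 ± 0.47 (SE), adjusted p = 0.074 (limma), and obese minus control over both durations was -1.03 ± 0.36 (adjusted p = 0.066, limma). Over the gene span alone these differences were 0.25 and 0.15, and with each peak weighted by its share inside the locus -0.55 and -0.19. The difference over both durations was called without HH 1, at -1.20 (adjusted p = 0.025, limma).

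The locus of Cd74 also takes in signal of a neighbour, Rps14, which encodes a protein of the small ribosomal subunit. Its region (chr18:60755452-60790147) reaches into the 20 kb upstream of Cd74. That region's level was 18.24, 18.01 and 18.11 in C and 17.70, 17.69 and 17.75 in H, and it was 18.32 and 18.15 in CC_l and 17.85, 17.81 and 17.74 in HH. The groups did not overlap in either arm, as in 16.3% of all regions tested. H minus C was -0.41 ± 0.11 (adjusted p = 0.043, limma) and obese minus control over both durations -0.42 ± 0.08 (adjusted p = 0.0048, limma), both short of the log2 threshold of 1. The former call was lost when any 1 of the 6 libraries was left out (adjusted p from 0.070 to 0.11, limma), and with the replicate number as a block (adjusted p = 0.087, limma). The latter held without any 1 of its 11 libraries. By maximum signal the differences were -0.09 and 0.02. This region was singled out after its values were seen.

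**Figure D3:**
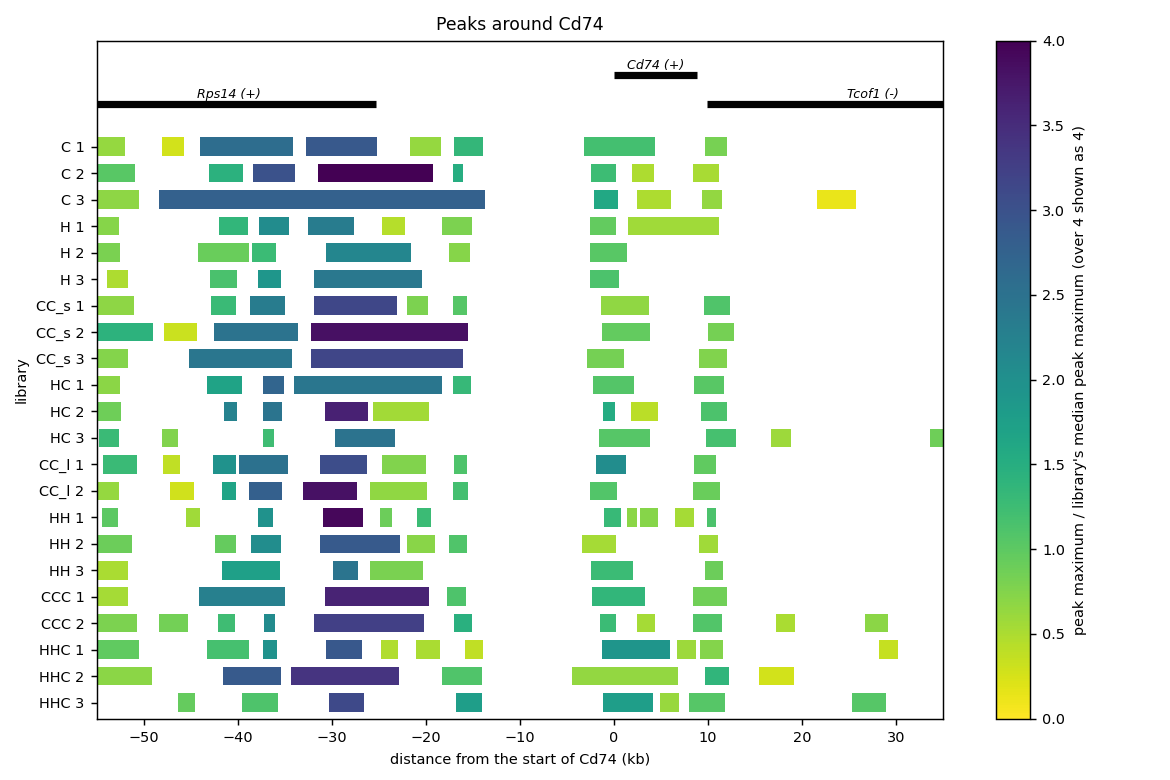
Peaks of each library (rows) by distance in kb from the start of Cd74 (x axis), coloured as peak maximum over the library's median peak maximum; black bars are genes with their strand. The peak at 0 kb is present in 22 libraries, and the peaks at the left edge belong to the Rps14 region.

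Group comparisons across all loci asked whether obesity, or a past of obesity, changed the accessibility of these genes. No locus of the 10 genes and no region within them was called in any of the 4 age-matched pairs or in the 2 comparisons over both durations, by limma with a Benjamini-Hochberg adjusted p under 0.05 and, for regions, an absolute log2 difference above 1. Tests covered loci and regions that exceeded the floor in a number of libraries no smaller than the size of the smaller side.

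For H against C, 0 of 10 loci were called, where 11% of all 17045 loci were. At an unadjusted p under 0.05, 1 of 10 (Cd74, lower) passed, where 31.2% of all loci did. Of 13 regions tested in these loci 0 were called, against 8.28% of all regions, and 0 met the promoter cut-offs, against 8.52%. The median locus difference was -0.04 over the 10 genes and -0.01 over all loci. At an unadjusted p under 0.05, 3 of the 13 regions passed, against 34.9% of all regions.

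For HH against CC_l, 0 of 10 loci were called (0.00579% of all loci) and 0 had an unadjusted p under 0.05 (12.1%). Of 14 regions, 0 were called (0% of all regions) and 0 met the promoter cut-offs (2.68%). The median locus difference was 0.09 over the 10 genes and -0.03 over all loci. Without HH 1 it was -0.21. For obese against control over both durations, 0 of 10 loci were called (17.8% of all loci) and 2 had an unadjusted p under 0.05, Cd74 and H2-D1, both lower (33.8%). Of 13 regions, 0 were called (6.16%) and 0 met the promoter cut-offs (6.13%).

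For HC against CC_s, 0 of 10 loci were called (0% of all loci) and 0 had an unadjusted p under 0.05 (8.99%). Of 14 regions, 0 were called (0% of all regions) and 0 met the promoter cut-offs (2.54%). The median locus difference was 0.32 over the 10 genes and -0.02 over all loci, and without HC 3 it was 0.10. For HHC against CCC, 0 of 10 loci were called (0%) and 0 had an unadjusted p under 0.05 (4.04%). Of 18 regions, 0 were called (0%) and 0 met the promoter cut-offs (0.706%). The median locus difference was 0.56 over the 10 genes, with 9 of 10 above 0, against -0.04 over all loci. Without HHC 1 it was 0.23, with 8 of 10 above 0.

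For weight loss against control over both durations, 0 of 10 loci were called (0.0941% of all loci) and 1 had an unadjusted p under 0.05, Ciita, higher (16.2%). Of 15 regions, 0 were called (0.942%) and 1 met the promoter cut-offs, the one over Cd74 (2.83%). The median locus difference was 0.42 over the 10 genes and -0.04 over all loci, and it was 0.38 without HHC 1 and 0.25 without the 4 low-signal libraries. Loci of neighbouring members share peaks, so the 10 values are not independent. An interaction term for duration gave 0 of 10 loci and 0 member regions at an adjusted p under 0.05 for either effect, and 0 at an unadjusted p under 0.05 (limma).

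**Figure D4:**
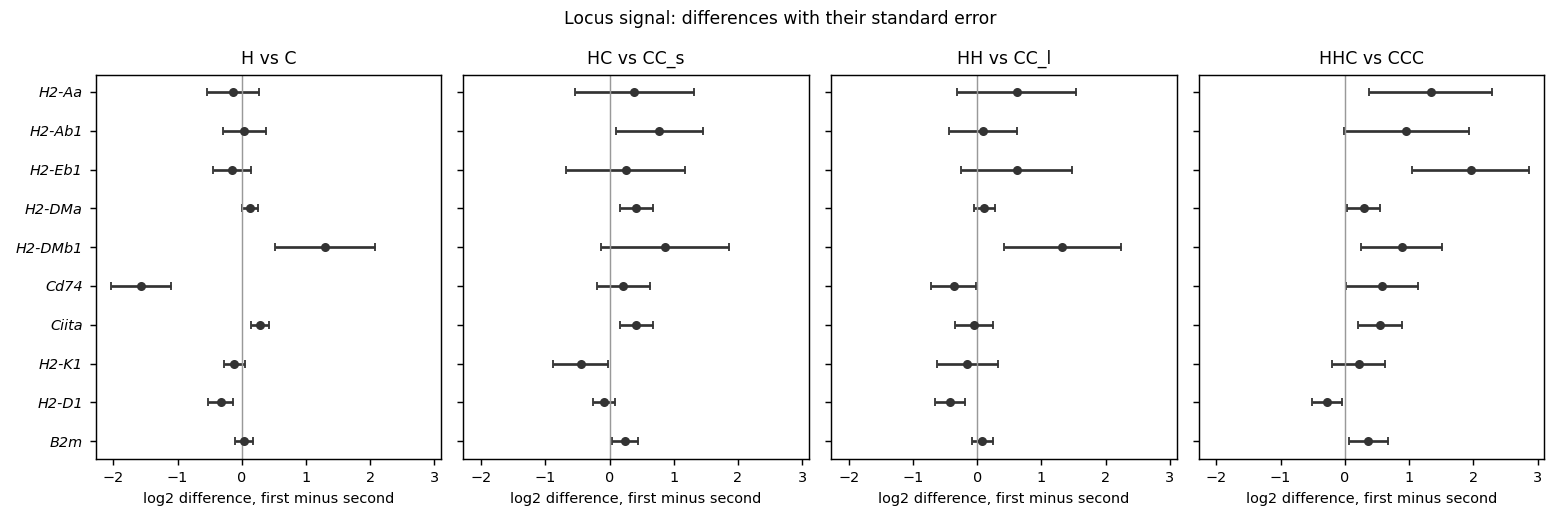
Difference in locus signal (log2, x axis) with its standard error for the 10 genes (rows) in the 4 age-matched pairs, first group minus second. The widest standard error is that of H2-DMb1 for HC against CC_s (0.99), and none of the differences was called.

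The control groups were compared in the same way, and 0 of the 10 loci were called in either pair. Between CC_s and C, chow-fed mice of 26 and 18 weeks, H2-Aa (0.92 ± 0.36, adjusted p = 0.81, limma) and H2-Eb1 (0.78 ± 0.27, adjusted p = 0.81, limma) were past an unadjusted p of 0.05, as were 5.44% of all loci. Between CCC and CC_l, 0 of the 10 loci were, against 9.64% of all loci. The H2-Eb1 locus level was 14.06, 14.15 and 14.82 in C and 15.04, 15.16 and 15.18 in CC_s, without overlap, as in 11.1% of all loci tested.

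HHC 1 stood apart from the other 21 libraries in these genes. Its promoter level was the highest of all 22 libraries for 8 of the 10 genes, H2-DMa and Cd74 being the exceptions. Over all 16262 promoters above the floor in any library, it was the highest for 3.52%. By peak maximum relative to the library's median peak maximum, HHC 1 was highest for H2-Aa, H2-Ab1, H2-Eb1, H2-DMb1 and H2-K1. By that measure it was below HH 1 for H2-D1 (3.09 and 3.20), C 2 for B2m (4.00 and 4.07) and HC 3 for Ciita (0.82 and 1.06). The promoter level of HHC 1 less the median of the other 21 was 2.89 for H2-D1, 2.83 for H2-Ab1 and 2.09 for H2-Aa and H2-Eb1. It was 1.81 for H2-DMb1, 1.78 for H2-K1 and 1.33 for B2m. The median of this difference was 1.80 over the 10 genes and 0 over all promoters. A promoter takes the whole signal of any peak that touches it. Across the H2-D1 locus the level was 19.08 in HHC 1, below CCC 2 at 19.37, and the median over the 22 libraries was 18.88. HHC 1 was singled out after its values were seen, and as a single animal it supports no statement about its group.

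**Figure D5:**
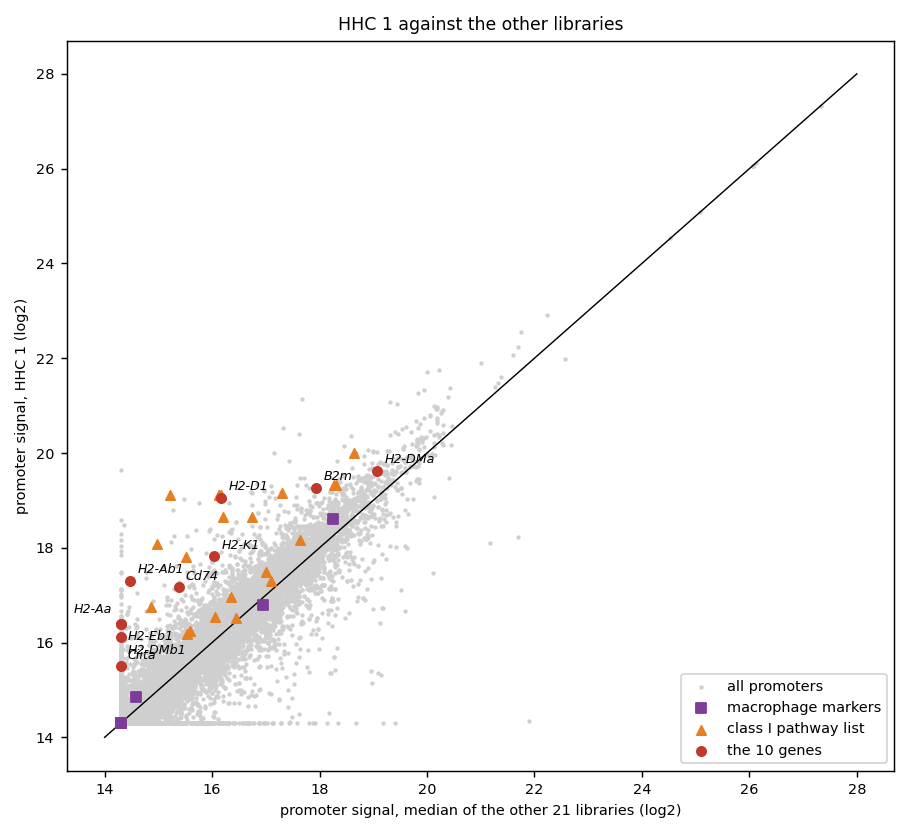
Promoter signal (log2, rank-mapped) in HHC 1 (y axis) against the median of the other 21 libraries (x axis) for all promoters (grey), the 10 genes, the class I pathway list and the macrophage markers; the line marks equal values. The 10 genes lie above the line, by 0.56 (H2-DMa) to 2.89 (H2-D1), and the macrophage markers lie on or near it.

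The wider class I pathway was high in the same library. Of 21 genes of class I peptide supply, loading and display, HHC 1 had the highest promoter level of all libraries for 13, which rest on 8 separate peaks or groups of peaks. Tap1 and Tap2, the peptide transporter of the endoplasmic reticulum, were both at 19.12 in HHC 1, against medians of 16.13 and 16.16 in the others. Psmb8, a catalytic subunit of the immunoproteasome, was at 19.12 against 15.21, and Psmb9, another, at 19.12 against 16.13. These 4 genes share 1 peak in HHC 1, so their equal values are 1 observation. Psme1 and Psme2 likewise share a peak there, as do H2-T23 and H2-T22. Elsewhere, Cd1d1 (a lipid-presenting relative) was at 19.15 against 17.30. Psme1 (proteasome activator) was at 19.32 against 18.27 and H2-T23 (a non-classical class I gene) at 18.65 against 16.20. By peak maximum relative to the library's median, Cd1d1 was at 2.853 in HHC 1, close to the median of 2.805 in the others. By that measure Psme1 was at 4.56 against 3.04 and H2-T23 at 3.32 against 1.15.

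Of 8 regulators of MHC genes, HHC 1 was highest for 1, Nlrc5, at 19.47 against 17.63. The Nlrc5 peak maximum relative to the library's median peak maximum was not higher, at 2.235 in HHC 1 against a median of 2.242 in the others. The promoter level of Rfx5, a subunit of the factor that binds the X box, was 16.32 against 16.14. That of Nfya, a subunit of the factor that binds the Y box, was 17.73 against 17.80. In the interferon γ pathway, the transcription factor gene Irf1 was at 18.39 against 16.38, below CCC 2 at 18.82, and the receptor gene Ifngr1 was at 18.87 against 18.90. Of 7 further class II genes it was highest for 1, H2-Oa, at 14.98 with the others at the floor.

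Marker promoters of other cell types were counted beside these values. All 12 adipocyte markers, among them Adipoq and Plin1, had a promoter peak in all 22 libraries. Their summed signal was 1030 ppm in HHC 3, 1515 in HC 3, 2285 in HH 1 and 2944 in CCC 2, the 4 low-signal libraries, and at least 4879 in every other library, with 5726 in HHC 1. HC 3, HHC 3 and CCC 2 are 3 of the 4 libraries with a Ciita promoter peak, and HC 3 and HH 1 are 2 of the 3 with an H2-Eb1 promoter level above the floor. HHC 1 is the remaining library in both. Of 12 macrophage markers, 5 had a promoter peak in HHC 1 (Cd68, Csf1r, Mertk, Mrc1 and Itgam), and 2 to 7 had one in the other libraries. Their summed signal was 181.9 ppm in HHC 1. By group it was 116.1 to 247.9 in C, 94.9 to 175.9 in H, 173.6 to 301.7 in CC_s, 114.6 to 151.4 in HC, 104.2 to 144.8 in CC_l, 128.3 to 138.0 in HH, 149.1 to 193.7 in CCC and 126.5 to 201.9 in HHC.

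Itgam had a promoter peak in HHC 1 and in 0 of the other 21 libraries, and Mrc1 in HHC 1 and 1 other, HHC 3, with both at the floor of 14.30 in HHC 1. Lyz2 had no promoter peak in HHC 1 and had one in 9 of the other 21 libraries, and Trem2 none in HHC 1 and one in 4 others. Adgre1, C1qa and C1qb had none in HHC 1 and one in at most 2 others, and Fcgr1 had none in any library. HH 1 had 7 macrophage promoters with a peak, HC 3 had 6, and HHC 3, C 1 and H 2 had 5 each. A promoter peak at H2-Aa, H2-Eb1 or Ciita was present in 4 of the 6 libraries with 5 to 7 macrophage promoters (HH 1, HC 3, HHC 1 and HHC 3, and not C 1 or H 2). It was present in 8 of the 16 libraries with 2 to 4. Of 8 dendritic cell markers, 1 or 2 had a peak in each library, and 4 (Batf3, Flt3, Cd209a and Xcr1) had none in any. Of 8 B cell markers, 0 to 3 had a peak, and of 7 T cell markers, 1 to 3 did. The part of other cell types in the class II peaks was not tested, and fewer nuclei of a type and less open chromatin per nucleus cannot be told apart in bulk libraries.

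Across groups, 42 of the 43 genes listed for the pathway beside the 10 members were found in the annotation, and the loci of 3 overlap those of members. Called loci (limma, adjusted p under 0.05) numbered 2 of 41 tested for H against C (11% of all loci) and 5 of 41 for obese against control over both durations (17.8% of all loci), and 0 of 42 in each of HC against CC_s, HH against CC_l, HHC against CCC and weight loss against control. Jak1, a kinase of the interferon receptors, was higher in H than in C by 0.52 ± 0.12 (adjusted p = 0.040, limma), with levels of 19.21, 19.08 and 19.26 against 18.62, 18.57 and 18.80. Tapbpl, a peptide editor of class I, was lower by -0.81 ± 0.20 (adjusted p = 0.049, limma).

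Over both durations, obese minus control was 0.49 ± 0.10 for Jak1 (adjusted p = 0.0069), 0.42 ± 0.10 for H2-T24 (adjusted p = 0.013), 0.53 ± 0.14 for H2-T22 (adjusted p = 0.023), 1.19 ± 0.38 for H2-Q7 (adjusted p = 0.049) and -0.36 ± 0.11 for Ifngr1 (adjusted p = 0.037), by limma. H2-T24, H2-T22 and H2-Q7 are class I genes of the non-classical type with near-identical relatives, so their signal is uncertain. H2-T22 was 17.58, 17.77 and 17.57 in C and 18.03, 17.97 and 18.04 in H, and 17.60 and 17.56 in CC_l and 18.69, 18.24 and 17.98 in HH, without overlap in either arm, as in 15.4% of all loci tested. In weight loss against control, 5 of the 42 were higher and 2 lower at an unadjusted p under 0.05, a share near the 16.2% of all loci. The smallest p was that of Psme2, a proteasome activator subunit, at 0.56 ± 0.16 (adjusted p = 0.18, limma). The median difference there was 0.20 over the 42 loci and -0.04 over all loci.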

How the data were processed

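Per the submitters' processing notes and the study's methods, the authors trimmed ATAC-seq reads (Trim Galore 0.6.6), aligned them to GRCm38 (Bowtie2 2.4.4), handled alignments with SAMtools 1.13 and bedtools 2.30, and called stringent peaks per library with SEACR 1.3 at a threshold of 0.01. The deposited values are total signal and maximum signal per peak, not normalised. Such values grow with sequencing depth and with how far a peak extends, and no read counts were used, so depth is unknown. Coverage-based peaks can be wide and span several genes.

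Peaks of the 22 libraries were merged into 104657 regions, and signal was also summed over 21938 gene loci, a peak overlapping a locus by 1 bp or more counting whole. Mitochondrial peaks, 1 per library, were left out. Libraries were rank-mapped (30083 regions, 16763 loci and 12439 promoters kept their rank) and tested with limma 3.58.1 in R 4.3.3 (empirical Bayes with trend, two-sided, Benjamini-Hochberg), with duration as a covariate over both durations. The test was checked on simulated data for features well above the floor in every library compared, which does not cover features at the floor. Tables were made with Python 3.11.15, numpy 2.4.6, pandas 2.3.3 and scipy 1.17.1. Groups came from the labels, each library being 1 animal. Alternatives were another signal column, scaling, filter, peak list, fit and locus definition, a replicate block, and leaving out each library.

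All 10 genes are named. Differences are printed for member loci and for regions at the members' own promoters with an unadjusted p under 0.05, for called pathway genes, and for a few further regions beside the gene they concern. The members and lists were chosen with earlier results of these data known. The value of 1 listed pathway gene is not reported here.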

Additional observations from a re-analysis of the deposited data

How the results depend on the processing

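The count of called loci and regions was 0 for these genes in all 6 comparisons and stayed at 0 under the alternatives run, except as follows. With an adjusted p alone, without the log2 threshold, 2 of 13 regions were called for H against C (16.8% of all regions) and 1 of 13 for obese against control over both durations (22.6%). For obese against control over both durations, 1 locus of the 10, Cd74, was called with the low-signal library of that comparison, HH 1, left out (24.3% of all loci). Leaving out the low-signal libraries, an alternative chosen after seeing the data, and leaving out HH 1 alone are here the same fit. The count was 2 with the share of library signal (18%), and 1 of 7 tested with the 30000 strongest peaks (15.5%). Leaving out 1 library each gave 0 to 1, the other call being H2-D1 without H 1 (12.5% of all loci). Direction turned for Cd74 over the gene span alone (0.25 for H against C, 0.15 for obese against control), for H2-D1 over the gene span alone (0.051) and by maximum signal (0.020), for Ciita by maximum signal (-0.010), for the H2-K1 region of HC against CC_s by maximum signal (0.0070), for the Dexi region of H against C by maximum signal (-0.12) and for the Rps14 region by maximum signal (0.16 for HH against CC_l, 0.017 for obese against control). The cause was not tested.

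Same-numbered libraries deviated from their group means with correlations of -0.181 to 0.174. Deviations within a group of 2 or 3 libraries must cancel, so these correlations cannot decide whether the replicate numbers pair the samples. With the replicate block, called loci over all genes numbered 358 against 1873 for H against C, 1624 against 3029 for obese against control and 0 against 16 for weight loss against control, and called regions 51 against 276 for weight loss against control and 156 against 0 for HH against CC_l. Of the 10 genes' loci and regions, 0 were called with the block. The H2-DMb1 region in H against C had a difference of 0.55 with the block. With 2 libraries in CC_l and CCC, leaving 1 out leaves a single library, assumed to vary like the others.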

Other observations

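Some interferon-induced genes that belong to none of the lists above were looked up because HHC 1 was high, so their values are a description only. Iigp1, an immunity-related GTPase, was at 19.03 in HHC 1 against a median of 15.48 and a highest value of 16.55 in the others. Irgm2, of the same family, was at 18.94 against a median of 16.31, and Cd274, which encodes the checkpoint ligand PD-L1, at 18.93 against 16.98. Gbp2, a guanylate-binding protein gene, was at 17.20 in HHC 1 and 17.26 in HH 1. The cause was not tested, and with 1 animal no statement about HHC follows.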
